A study of Mus musculus with 6 samples.

Results

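Antibody genes were followed in mouse lung after 10 weeks of high fat diet. The rule took the rows of the deposited table named Igha, Ighm, Ighg1, Ighg2b, Ighg2c, Ighg3, Igkc, Jchain, Derl3 or Mzb1. All 10 were found among the 21900 genes of the table. The first 7 encode constant regions of immunoglobulin chains, and the other 3 encode proteins that plasma cells use to assemble and secrete antibody. The series holds 6 RNA-seq libraries of whole lung, 3 with the genotype label Wild Type and 3 with the label Cyp1b1 KO, a loss of the cytochrome P450 enzyme CYP1B1. Each label covers 2 females (replicates 1 and 2) and 1 male (replicate 3), and every animal ate the same diet, so no normal diet enters the comparison. The sources used here do not give strain, age, the design of the knockout allele or whether each library is a separate animal, so p-values measure only the spread between libraries, which may be technical. Values are written in the order replicate 1, 2 and 3 of a label. The labels carry no such numbers: they were given here in the order of the deposited samples, only as names, and pair no library with another.

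Cyp1b1 itself was at 12.5, 19.0 and 18.5 CPM (read counts scaled to a library total of 1000000) under the wild type label and at 51.2, 56.1 and 48.4 CPM under the knockout label. The targeted gene was thus higher under the knockout label, and every direction by genotype below rests on labels that this level does not bear out. Reads from a part of the gene that an allele keeps would still be counted. Depth read from the smallest step between low values was 20.2 to 27.6 per library in units of 1000000 reads. The 2 male libraries stood apart from the 4 females. Summed over 6 neutrophil markers, the male labelled knockout held 5412 CPM against 103 to 189 CPM in the other 5 libraries. Summed over 6 T cell markers, the male labelled wild type held 133 CPM against 28.3 to 40.7 CPM in the others. Results are therefore given with and without the males. The lung origin of the libraries was borne out by its defining markers: Sftpc, of alveolar type 2 cells, lay between 7541 and 12270 CPM, and Scgb1a1, of airway secretory cells, between 9396 and 24282 CPM.

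An antibody is built of heavy and light chains, each with a variable region that binds antigen and a constant region that sets its class. Naive B cells make IgM and IgD from Ighm and Ighd, and class switch recombination then joins the same variable region to a downstream constant gene, giving IgG or IgA. Plasma cells are the end stage of this line: they switch from membrane to secreted heavy chain and devote much of their endoplasmic reticulum (ER) to antibody. In the airways, plasma cells under the epithelium release IgA joined into dimers by the J chain, and the polymeric immunoglobulin receptor carries these dimers into the lumen.

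All 6 heavy chain genes lie on the minus strand of chromosome 12 (genome build mm10, GENCODE release M21), in the order of transcription Ighm, Ighg3, Ighg1, Ighg2b, Ighg2c, Igha. Ighm (ENSMUSG00000076617), the class of naive B cells, spans 113418558 to 113422730. Igha (ENSMUSG00000095079), the class of mucosal surfaces, lies farthest downstream at 113254830 to 113260236. Between them lie the IgG genes Ighg3 (113356224 to 113361232), Ighg1 (113325240 to 113330523), Ighg2b (113302965 to 113307933) and Ighg2c (113285325 to 113288932). Igkc, the constant region of the kappa light chain, is a single exon on chromosome 6 from 70726435 to 70726966, inside the annotated span of the long noncoding gene Gm30211 on the same strand. Jchain lies on chromosome 5 (88519809 to 88527891, minus strand) and Derl3 on chromosome 10 (75893413 to 75895941, plus strand). Reads in the overlap of Igkc with Gm30211, or of Mzb1 with Spata24, cannot be told apart.

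The ends of the secreted heavy chains show which classes the J chain can join. In Ighm and Igha the coding sequence ends in a tailpiece whose second-to-last codon, in capitals, encodes the cysteine that bonds to the J chain. In Ighg2c and Ighg2b the same position, also in capitals, holds another codon. The last 60 coding bases of the secreted transcripts in GENCODE release M21 (chromosome 12, minus strand, stop codon left out) read:
Ighm: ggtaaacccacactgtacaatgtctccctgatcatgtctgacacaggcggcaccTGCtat
Igha: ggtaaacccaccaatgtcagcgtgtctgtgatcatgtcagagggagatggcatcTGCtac
Ighg2c: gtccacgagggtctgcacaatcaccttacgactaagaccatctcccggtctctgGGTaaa
Ighg2b: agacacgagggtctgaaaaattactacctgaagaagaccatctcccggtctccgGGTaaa

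These stretches cover 113420870 to 113420929 (Ighm), 113258771 to 113258830 (Igha), 113287392 to 113287451 (Ighg2c) and 113306392 to 113306451 (Ighg2b). The likeness between the IgG genes also bears on how reads are assigned. Of all stretches of 50 bases in the secreted Ighg2b transcript, 5.26% also occur in Ighg2c, and of those in Ighg2c, 5.27% occur in Ighg2b. No stretch of that length was shared by Ighm, Igha, Ighg1 or Ighg3 with another of the 6 genes. On this measure, values of Ighg2b and Ighg2c are less certain than those of Ighm, Igha, Ighg1 and Ighg3. Membrane and secreted forms of a heavy chain fall into the same gene value and are not separated here.

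Every member reached its highest value in the male labelled wild type, 10 of 10, and 5 of 10 had their lowest value in the male labelled knockout. Another 4 were lowest in wild type 1, a female, and 1 in knockout 2. The share of all genes with their highest or lowest value in these libraries was not counted, so these counts have no background. The summed level of the 10 members was 364, 798 and 3041 CPM under the wild type label and 787, 441 and 190 CPM under the knockout label. The extremes of both labels are thus the males, in opposite directions. In RNA of whole lung, fewer plasma cells and less antibody RNA per cell cannot be told apart. The members span a wide range, shown in the plot of CPM by library.

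**Figure D1:**
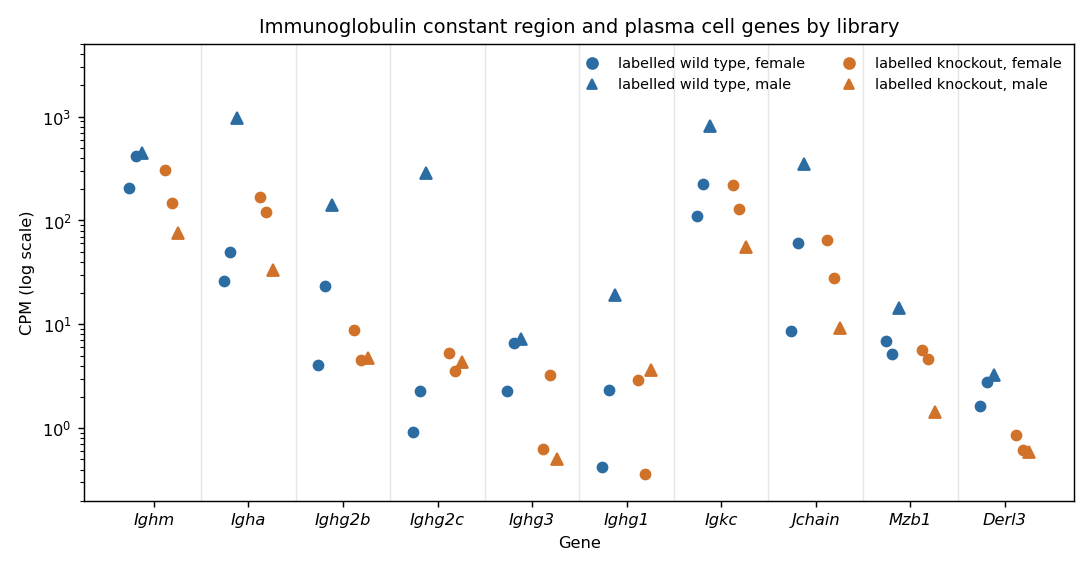
Each point is the CPM of a gene in 1 library on a log axis, blue for labelled wild type and orange for labelled knockout, circles for females and triangles for males. The blue triangle, the male labelled wild type, is the highest point for all 10 genes, and for Derl3 alone all 3 blue points lie above all 3 orange points.

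Igha, the heavy chain of IgA, was at 25.96, 49.95 and 966 CPM under the wild type label and at 169, 121 and 33.3 CPM under the knockout label. The male labelled wild type stood 5.71 times above the highest female, and the labels overlapped. Among the females alone the order was the other way: both females labelled knockout lay above both labelled wild type. Ighm, which naive B cells also express, was far more even, at 204, 418 and 449 CPM under the wild type label and 309, 146 and 76.4 CPM under the knockout label. It varied 5.88-fold between its lowest and highest library, against 37.2-fold for Igha. Ighm was thus near its female range in the male labelled wild type, at 1.07 times the highest female, while Igha was not.

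The IgG genes were low in the females and differed in how far the male labelled wild type departed from them. Ighg2c, a class that is switched to under interferon gamma, was at 0.921, 2.28 and 284 CPM under the wild type label and at 5.29, 3.52 and 4.33 CPM under the knockout label. That male was 53.7 times the highest female, the widest departure of any member, and rested on 6655 reads against 22 to 118 in the other libraries. Ighg2b was at 4.06, 23.6 and 140 CPM under the wild type label and at 8.83, 4.53 and 4.76 CPM under the knockout label. Ighg1, a class favoured by interleukin 4, was at 0.419, 2.32 and 19.2 CPM and at 2.91, 0.363 and 3.66 CPM, with 10 reads in wild type 1 and 10 in knockout 2. Both males lay above all 4 females for Ighg1, the only member with that pattern; the sexes did not overlap for 24% of all genes tested, and males were higher for 9.28%. Ighg3, an early class made against polysaccharides, was at 2.30, 6.58 and 7.30 CPM and at 0.627, 3.23 and 0.507 CPM, with as few as 13 reads in a library. Its male value under the wild type label was 1.11 times the highest female, so Ighg3 did not share the wide departure of Ighg2c.

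Igkc, the constant region of kappa light chains, was at 110, 226 and 810 CPM under the wild type label and at 220, 129 and 55.7 CPM under the knockout label. The male labelled wild type was again apart, and the female ranges of the labels overlapped. Divided by transcript length, the Igkc level was between 0.961 and 1.23 times the summed level of the 6 heavy chain genes in every library, although the summed level itself ran from 93.4 to 1585 CPM per kb. Light and heavy chain RNA therefore stood in nearly the same proportion across a wide range of amounts. Kappa made up between 85.7% and 97.5% of the summed CPM of Igkc and the lambda genes Iglc1, Iglc2 and Iglc3. Lambda was lowest in the male labelled knockout, where Iglc1 was at 0.0781 CPM, under the level worth 3 reads (0.117 CPM), against 1.88 to 9.86 CPM in the other libraries.

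Jchain encodes the J chain that links IgA and IgM into polymers. It was at 8.54, 60.5 and 347 CPM under the wild type label and at 64.2, 28.2 and 9.12 CPM under the knockout label. Its lowest libraries were a female labelled wild type and the male labelled knockout, and the labels overlapped. Per kb of transcript, Jchain stood at 0.185 to 0.300 of the Igha level in 5 libraries. The exception was wild type 2, where the ratio was 0.956. That library had 60.5 CPM of Jchain beside 49.95 CPM of Igha and 418 CPM of Ighm, the other partner of the J chain. Mzb1, an ER chaperone cofactor of B and plasma cells that aids antibody assembly, lies on the minus strand of chromosome 18 from 35647267 to 35649367, where the annotation of Spata24 overlaps it on the same strand. It was at 6.94, 5.19 and 14.4 CPM and at 5.60, 4.68 and 1.44 CPM. Its 4 females lay within 4.68 to 6.94 CPM, the narrowest female range of the members as a ratio, and the males lay on either side.

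Derl3, a subunit of the machinery that returns misfolded proteins from the ER for degradation, was the exception among the members. It was at 1.63, 2.77 and 3.29 CPM under the wild type label and at 0.851, 0.616 and 0.585 CPM under the knockout label. All 3 libraries labelled wild type lay above all 3 labelled knockout, in females and males alike. It was the only member whose labels did not overlap, 1 of 10; over all genes tested 9.52% did not overlap (5.89% lower and 3.63% higher under the knockout label), so a count of 1 is near that background. These levels are low: they rest on 39, 56 and 77 reads under the wild type label and 19, 17 and 15 under the knockout label. The exact Poisson 95% interval of the lowest library labelled wild type (1.16 to 2.23 CPM) overlapped that of the highest labelled knockout (0.513 to 1.33 CPM). Such intervals cover counting error only and leave out the spread between libraries. They are too narrow where reads are PCR copies, which are not independent molecules. Overlap of intervals is no test of a difference.

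The class composition was compared on CPM per kb of secreted transcript, summed over the 6 heavy chain genes. Igha held 14.1% and 12.7% of that sum in the females labelled wild type and 40.8% and 50.3% in the females labelled knockout. In the males it held 55.4% under the wild type label and 32.4% under the knockout label. Ighm accordingly held 81.7%, 78.5% and 19.0% under the wild type label and 55.0%, 44.9% and 54.8% under the knockout label. The IgG genes together held 4.18% to 8.82% in the females, 25.6% in the male labelled wild type and 12.9% in the male labelled knockout. Ighg2c alone made up 16.1% of the sum in the male labelled wild type; the other libraries held 0.496% to 4.17%. The female labels do not overlap in the Igha share, but this share was examined after the values had been seen and received no test. With lengths taken over all annotated exons, the Igha shares were 8.03%, 7.35% and 41.3% under the wild type label and 26.9%, 35.2% and 20.9% under the knockout label, in the same order of libraries.

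**Figure D2:**
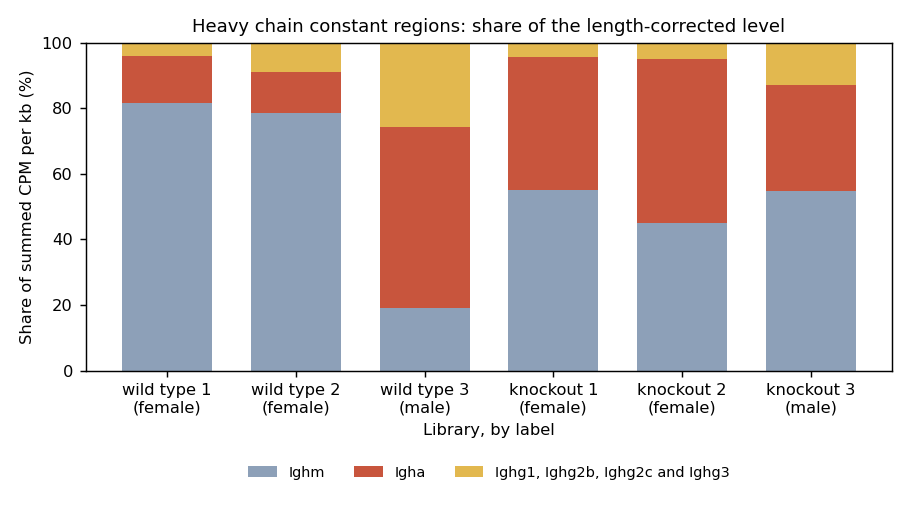
Bars give the share of each library's summed heavy chain level (CPM per kb of secreted transcript, in %) held by Ighm, Igha and the 4 IgG genes. Ighm holds 81.7% and 78.5% in the females labelled wild type and 19.0% in the male of that label, while the 3 libraries labelled knockout lie between 44.9% and 55.0%.

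The comparison of genotype labels, which asks what changes in the lung when Cyp1b1 is lost under a high fat diet, called none of the 10 members. The test was limma on log2(CPM + 0.5) with sex as a term, adjusted by the Benjamini-Hochberg method over 17382 genes, and all 10 members passed its filter on low values. It called 0.0115% of all genes. At an unadjusted p under 0.05, 3 of 10 members were found (Derl3, Ighg3 and Ighm), against 5.13% of all genes; no other tool was run across all genes. All 10 log2 differences were below 0, as were 10418 of the 17382 genes tested. The median was -1.15 beside -0.06 over all genes tested. The members share libraries and cells, so they are not 10 independent observations. Igha had a log2 difference of -0.30 (SE 1.16, limma adjusted p = 0.955), whose error covers differences in either direction. Derl3 had the smallest p, with a log2 difference of -1.34 (SE 0.34, limma adjusted p = 0.775). The exact two-sided permutation test of Derl3 gave p = 0.1, the smallest that 3 against 3 libraries allow. Ighg2b had a log2 difference of -1.99 (SE 0.88), Ighg3 -1.73 (SE 0.60), Igkc -1.22 (SE 0.71), Ighm -1.15 (SE 0.47), Jchain -1.14 (SE 1.18), Mzb1 -1.12 (SE 0.51), Ighg2c -1.11 (SE 1.23) and Ighg1 -0.69 (SE 0.70). The limma adjusted p of these 8 ran from 0.775 to 0.830.

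In the 4 females alone, 5 of the 10 differences were above 0 and 5 below, with a median of -0.06 beside -0.0035 over all genes tested. No member passed limma there, where 0.0406% of all genes did (0.0174% higher and 0.0232% lower), and 3 of 10 were under an unadjusted p of 0.05 against 2.69% of all genes. Igha came nearest, with a log2 difference of 1.97 (SE 0.27, limma adjusted p = 0.0576), higher in both females labelled knockout. Ighg2c was also higher in both, with a log2 difference of 1.28 (SE 0.41), and Derl3 lower in both, at -1.10 (SE 0.40); their limma adjusted p was 0.99993. For all genes tested, the female labels did not overlap for 28.9% (14.3% higher and 14.6% lower under the knockout label). The sign of the Igha, Ighg1, Ighg2c, Igkc and Jchain differences turned from negative over all libraries to positive in the females. The other 5 members kept their sign, with smaller differences. Without the males, Ighg2b moved from -1.99 to -0.62, Ighm from -1.15 to -0.46, Mzb1 from -1.12 to -0.21 and Ighg3 from -1.73 to -1.12, each by over 1.5 times, and Derl3 from -1.34 to -1.10. Leaving out either male alone must give the same log2 differences as leaving out both, since the sex term takes up a single remaining male. It is therefore no separate check of these differences, though errors and adjusted p are not the same.

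Between the sexes no member passed limma, where 0.834% of all genes did (0.627% higher and 0.207% lower in males); 2 of 10 (Ighg1 and Ighg2c) were under an unadjusted p of 0.05 against 15.3% of all genes. Without the male labelled knockout 4 members passed, and without the male labelled wild type 1 did, but the same fits called 724 and 840 of all genes in place of 145. Each of these sets a single male library against females and assumes that it varies as they do. The interaction term asks whether the label difference in the males was that in the females. It called 4 of 10 members, all with a more negative difference in the males, against 1.84% of all genes in that direction, 0.702% in the other and 2.54% in either. At an unadjusted p under 0.05 it found 7 of 10 members and 17.9% of all genes. With 1 male per label this sets 2 libraries against the spread of females. In the males the label difference was -4.84 for Igha, -5.88 for Ighg2c, -3.85 for Igkc and -2.94 for Mzb1 (log2, knockout minus wild type, 1 library each). The interaction estimates were -6.81 for Igha (SE 0.48, limma adjusted p = 0.000380), -7.16 for Ighg2c (SE 0.63, limma adjusted p = 0.00107), -3.95 for Igkc (SE 0.57, limma adjusted p = 0.0115) and -2.73 for Mzb1 (SE 0.49, limma adjusted p = 0.0266). Jchain, at -6.05 (SE 1.29), missed the threshold with a limma adjusted p of 0.0523, and Derl3 had the smallest estimate, -0.70 (SE 0.67, limma adjusted p = 0.635). The median over the 10 members was -3.34 beside -0.13 over all genes tested. With no filter on low values the interaction term called no gene at all, members included; the adjusted p of Igha was then 0.0928, of Ighg2c 0.104, of Igkc 0.198 and of Mzb1 0.175. The call of Mzb1 was also lost without wild type 2 (adjusted p = 0.0502) or knockout 1 (0.0720), and that of Igkc under robust moderation (0.152). Jchain passed without wild type 1 (adjusted p = 0.0114), wild type 2 (0.00162) or knockout 2 (0.0405), with a pseudocount of 1 (0.0465) and with median centring (0.0223). Ighg2b passed without wild type 1 (0.0392) or wild type 2 (0.00540), and Ighm without knockout 2 (0.0440).

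**Figure D3:**
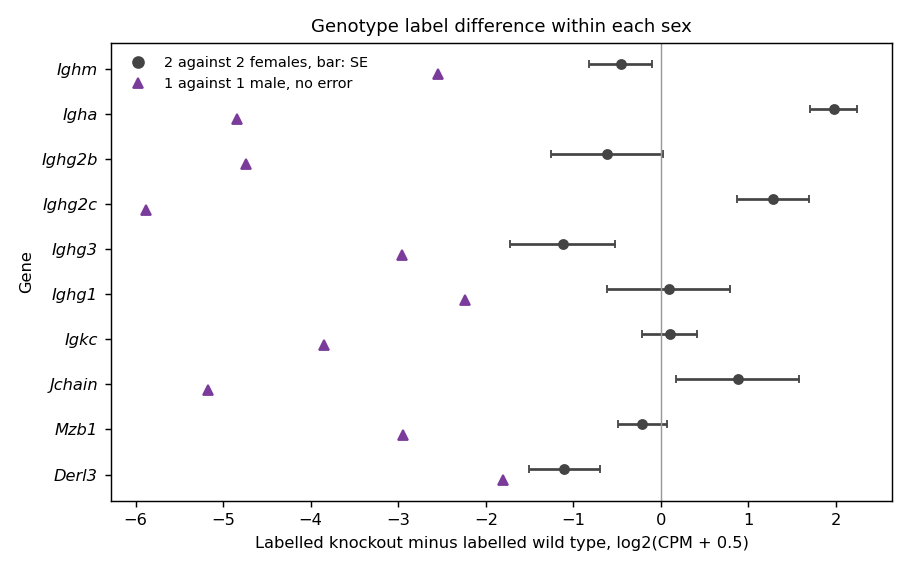
Circles show the labelled knockout minus labelled wild type difference of log2(CPM + 0.5) in 2 against 2 females with its standard error, and triangles the same difference between the 2 males, without error. All 10 triangles lie below 0, from -1.80 for Derl3 to -5.88 for Ighg2c, while the female values run from -1.12 to 1.97. The share of all genes below 0 in the males was not counted.

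Markers of other cells also set the 2 males apart. The summed level of 17 B cell markers was 495, 323 and 586 CPM under the wild type label and 495, 375 and 197 CPM under the knockout label. B cell markers were thus highest and lowest in the same 2 males, over a narrower range than the members. Among the females they did not follow the members: wild type 2 had the lowest B cell sum (323 CPM) and the highest member sum (798 CPM). Relative to that sum, Ighm stood at 0.388 to 1.30 and Igha at 0.0525 to 1.65, with the male labelled wild type highest for Igha and wild type 2 highest for Ighm. The interaction term called 5 of 17 B cell markers lower, among them Pax5, the factor that holds B cell identity (interaction log2 -2.23, limma adjusted p = 0.0189), Cd72 (-2.34, 0.0315) and Fcrla (-2.25, 0.0351). It also called 2 of 6 T cell markers lower, Cd4 (-3.48) and Cd3g (-2.36), and 5 of 6 neutrophil markers higher. Over all genes tested, the term called 1.84% lower and 0.702% higher. These calls rest on 1 male per label, and with no filter on low values the term called no gene. Summed haemoglobin and erythroid markers were 2760 and 5848 CPM in the males labelled wild type and knockout, against 851 to 1607 CPM in the females. The part of these cells in the antibody gene values was not tested.

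Genes beside the members in the antibody pathway were taken from lists. Of 7 other constant genes listed, 4 were in the table and tested, and the remaining 3, Ighe, Ighg2a and Iglc4, are not analysed here. Ighd, the IgD chain of naive B cells, chosen after its values were seen, was at 73.0, 38.3 and 61.1 CPM under the wild type label and at 69.3, 55.0 and 21.5 CPM under the knockout label, so it was not raised in the male labelled wild type. The lambda genes Iglc1 and Iglc2 passed the interaction term (log2 -5.28 and -4.89, limma adjusted p = 0.00992 and 0.0111), which called 1.84% of all genes lower. None of the 4 passed by genotype label in limma, with 1 under an unadjusted p of 0.05 beside 5.13% of all genes.

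Among plasma cell identity genes, 12 of 13 were tested, 0 passed by genotype label or sex in limma, and 2 passed the interaction term, both lower, where 1.84% of all genes did. By label, sex and interaction, 1, 1 and 5 of the 12 were under an unadjusted p of 0.05, beside 5.13%, 15.3% and 17.9% of all genes. The list's median label difference was -0.27 beside -0.06 over all genes. Slamf7, a surface receptor of plasma cells that other lymphocytes and myeloid cells also carry, was at 9.96, 9.55 and 61.2 CPM under the wild type label and 12.8, 9.03 and 3.66 CPM under the knockout label (interaction log2 -4.02, limma adjusted p = 0.00200). Pou2af1, a coactivator of immunoglobulin gene transcription, was at 23.1, 15.1 and 37.1 CPM and at 31.4, 20.4 and 9.55 CPM (interaction log2 -2.33, limma adjusted p = 0.0374). Tnfrsf17, the BCMA receptor that defines plasma cells, did not reach the filter and was at most 0.335 CPM in any library. Xbp1, the transcription factor that expands the ER of plasma cells, and Sdc1, the plasma cell marker syndecan 1, are also made by lung epithelium; both genes were picked with their values in view. Xbp1 was at 220, 219 and 229 CPM under the wild type label and 210, 207 and 205 CPM under the knockout label, without overlap (log2 difference -0.10, limma adjusted p = 0.798). Sdc1 ran from 148 to 251 CPM with overlap. Fkbp11, an ER folding enzyme rich in secretory cells, was chosen after its values were seen. It was at 4.19, 4.402 and 4.57 CPM under the wild type label and 2.73, 2.50 and 2.61 CPM under the knockout label. Its labels did not overlap (log2 difference -0.65, limma adjusted p = 0.775). Xbp1 and Fkbp11 were the only 2 of the 12 tested genes without overlap. Over all genes tested 9.52% did not overlap, with 5.89% lower under the knockout label.

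Derl3 is a target of the unfolded protein response, and its promoter was compared with those of other ER genes. The ER stress element, CCAAT and CCACG with 9 bases of any kind between them, is bound by NF-Y and the ATF6 and XBP1 factors. In the 250 bases before the transcript start, on either strand, it occurred in 0.113% of 32851 RefSeq promoter windows (build GRCm38.p6). Derl3 holds a match, from 156 to 138 bases before the start and on the strand opposite to the gene, in capitals in this sequence of its promoter (chr10:75893148-75893397, plus strand):
Derl3: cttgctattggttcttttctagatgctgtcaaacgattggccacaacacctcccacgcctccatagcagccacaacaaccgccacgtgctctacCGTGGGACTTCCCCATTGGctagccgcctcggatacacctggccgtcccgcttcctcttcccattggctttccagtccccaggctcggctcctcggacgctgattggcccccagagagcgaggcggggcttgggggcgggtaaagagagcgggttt

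Of 22 ER secretory genes listed, 18 had a promoter entry and 4 of these held the element: Hspa5 (the chaperone BiP), Hsp90b1 (the chaperone GRP94, with 2 matches), Dnajc3 (a BiP cochaperone) and Creld2 (an ER resident protein induced by stress). Written in the direction that puts CCAAT before CCACG, with the spacer in lower case, the matches read:
Derl3: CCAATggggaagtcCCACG
Hspa5: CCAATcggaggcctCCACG
Hsp90b1: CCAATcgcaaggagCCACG
Hsp90b1: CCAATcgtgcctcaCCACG
Dnajc3: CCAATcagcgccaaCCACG
Creld2: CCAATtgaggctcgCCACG

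The 5 genes differed in how far they moved. Hspa5, Hsp90b1 and Creld2 lay on the same side of their own means in every library, a pattern that Derl3 and Dnajc3 did not share. Derl3 spanned 1.80 log2 units across the 6 libraries, while Hspa5 spanned 0.40, Hsp90b1 0.17, Dnajc3 0.10 and Creld2 0.63. Derl3 rests on only 15 to 77 reads per library, so counting error weighs more in its span than in the others. Hspa5 was at 504, 453 and 586 CPM under the wild type label and at 465, 542 and 446 CPM under the knockout label, and Dnajc3 at 249, 247 and 252 CPM and at 247, 264 and 260 CPM. The labels overlapped for both, as for Hsp90b1 (565 to 636 CPM), Creld2 (24.04 to 37.6 CPM) and Herpud1, an ER degradation adaptor (241 to 300 CPM). Of the 22 ER secretory genes none passed limma by label, sex or interaction; 1, 3 and 7 of them were under an unadjusted p of 0.05, beside 5.13%, 15.3% and 17.9% of all genes. Their median label difference was -0.10. Among the 22, the labels did not overlap for 2 genes lower and 1 higher under the knockout label, beside 5.89% and 3.63% of all genes tested. These genes are expressed in every secretory cell of the lung. A match of letters is a description of the window and does not show that a factor binds there.

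**Figure D4:**
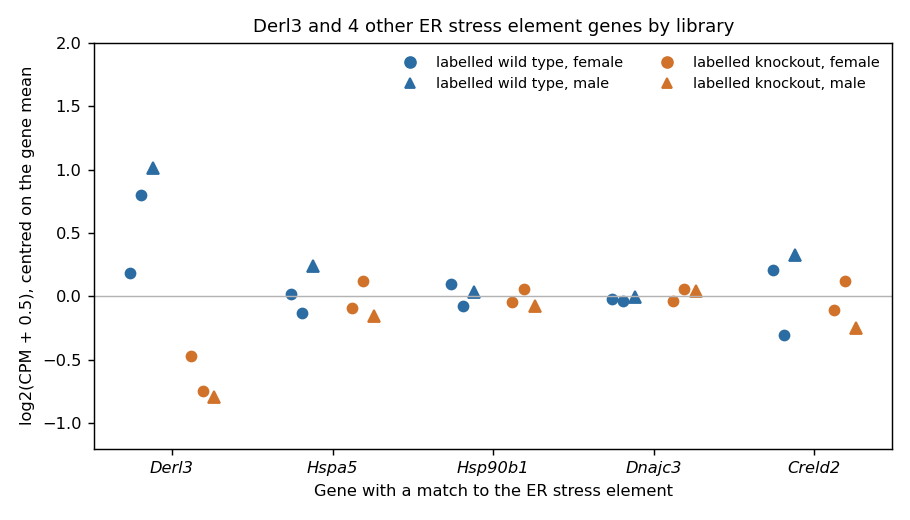
Points are log2(CPM + 0.5) of each library, centred on the mean of the gene over 6 libraries, for Derl3 and the 4 listed ER genes whose promoter window holds the ER stress element. Derl3 spans 1.80 log2 units with no overlap of the labels, and the other 4 span at most 0.63. Derl3 rests on 15 to 77 reads per library.

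The Jchain promoter, of a member that spanned 40.6-fold across the libraries, was read in the same window (chr5:88527898-88528147, minus strand). It holds no ER stress element and no octamer ATGCAAAT, a motif of immunoglobulin promoters found in 1.60% of all windows. It holds the core ACGTG, in capitals and on the opposite strand, which 16.6% of all windows hold:
Jchain: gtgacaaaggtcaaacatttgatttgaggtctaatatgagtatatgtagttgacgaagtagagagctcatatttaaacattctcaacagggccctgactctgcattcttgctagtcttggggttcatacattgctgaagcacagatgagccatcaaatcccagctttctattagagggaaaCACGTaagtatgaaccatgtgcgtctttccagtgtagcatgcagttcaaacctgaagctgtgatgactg

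Of 12 class switching and germinal centre genes listed, 11 were in the table and 9 were tested. None passed limma by label, sex or interaction. In these comparisons 0, 0 and 2 were under an unadjusted p of 0.05, beside 5.13%, 15.3% and 17.9% of all genes. Among the most abundant were Bcl6, the master factor of germinal centres (62.3 to 76.6 CPM), S1pr2 (41.2 to 45.3 CPM) and Bach2 (22.2 to 33.8 CPM), each with overlapping labels. Which cells of the whole lung made these RNAs was not tested, so their levels are no measure of germinal centres. Gcsam, a germinal centre B cell gene chosen after its values were seen, was at 1.13, 3.76 and 8.37 CPM under the wild type label and at 3.23, 2.39 and 1.68 CPM under the knockout label. Its highest library was the same male.

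Of the genes that carry or bind antibody, Pigr, the receptor that moves polymeric IgA across the epithelium, was at 75.3, 172 and 120 CPM under the wild type label and 132, 122 and 78.0 CPM under the knockout label. Pigr, chosen after its values were seen, did not follow Igha, since the male labelled wild type was inside the female range. Of 12 transport and Fc receptor genes tested, none passed limma by label, with 2 under an unadjusted p of 0.05 beside 5.13% of all genes. By sex 1 of these genes passed, beside 0.834% of all genes. This was Fcgr3, an activating IgG receptor of myeloid cells, at 97.2 and 71.3 CPM in the males labelled wild type and knockout and at 21.5 to 27.3 CPM in the females (log2 difference 1.81, limma adjusted p = 0.00585). Among 10 survival and homing signals tested, none passed limma by label, with 2 under an unadjusted p of 0.05 beside 5.13% of all genes. Vcam1 and Ccl19 passed the interaction term (log2 -2.07 and -4.37, limma adjusted p = 0.00326 and 0.00926), which called 1.84% of all genes lower. Ccl19, a chemokine of lymphoid tissue, was at 7.25 CPM in the male labelled wild type, 1.24 to 2.01 CPM in the females and without a read in the male labelled knockout. Tnfsf13b and Tnfsf13, the plasma cell survival factors BAFF and APRIL, were chosen after their values were seen. Tnfsf13b lay within 23.001 to 37.9 CPM with overlap. Tnfsf13 was at 14.5, 13.0 and 17.8 CPM under the wild type label and 9.75, 12.3 and 9.83 CPM under the knockout label. Its labels did not overlap (log2 difference -0.48, limma adjusted p = 0.775). Tnfsf13 was the only 1 of the 10 tested signals without overlap, beside 9.52% of all genes tested (5.89% lower).

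Plasmacytoid dendritic cells also express Mzb1, and 5 of their markers were measured. Their summed level was 29.7 to 35.2 CPM under the wild type label and 24.9 to 31.5 CPM under the knockout label. None passed limma by label, sex or interaction. In these comparisons 0, 0 and 3 of the 5 were under an unadjusted p of 0.05, beside 5.13%, 15.3% and 17.9% of all genes. Siglech, a lectin of these cells, was at 4.10, 2.97 and 5.25 CPM and at 4.70, 3.05 and 2.11 CPM, so it was present in every library. It was highest in the male labelled wild type and lowest in the male labelled knockout, where the summed level was not lowest. Cox6a2 was the most abundant of the 5, at 15.4 to 26.6 CPM, so the summed level leans on this gene and says little of the others.

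The 74 heavy variable segments of the table summed to 19.7, 41.7 and 237 CPM under the wild type label and to 63.6, 27.1 and 12.3 CPM under the knockout label, highest and lowest in the same males.

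Genes whose pattern lay nearest to that of the members were ranked among 16016 genes by the root mean square difference of centred log2 levels over the 6 libraries. Of the 50 nearest to the mean profile of the 10 members, 14 were immunoglobulin segments. The nearest 8 of the others were Batf2, Ccl7, Gbp11, Ms4a7, Hpgds, C1qb, Nlrp1b and Aif1, at 0.24 to 0.37 log2 units. Batf2 was at 2.64, 4.60 and 23.3 CPM under the wild type label and 3.99, 2.94 and 2.26 CPM under the knockout label, and C1qb, a complement subunit made by macrophages, at 25.1, 36.4 and 208 CPM and at 32.6, 37.8 and 21.2 CPM. For Igha alone, 24 of the 50 nearest were immunoglobulin segments. The nearest others were Calhm6, Gm43302, Tlr11, Slamf8, Gm12250, Gbp4, Gbp6 and Tgtp1, at 0.57 to 0.81. Their likeness rests on 6 libraries that share the same high male.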

How the data were processed

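RNA-seq of 6 mouse lung libraries was used as CPM values that the authors deposited per gene, with 0.0001 added to each. TopHat2, Partek and build mm10 are named in the submitters' processing notes, without versions; the sources used here give no annotation, filter or strand setting. Reads were not recovered as whole counts: of values worth up to 100 reads, 82.2% to 83.4% per library were whole within 0.05, so limma 3.58.1 (R 4.3.3, variance trend) was run on log2(CPM + 0.5) in place of a count model. Genes with a mean of at least 0.5 CPM were tested, with genotype label and sex as terms; an interaction term and the 4 females were fitted separately. Tests were two-sided, with an adjusted p under 0.05 as the threshold. Fold changes on this scale understate changes of low genes. The label term of the additive fit was tested on 3 simulated tables that held label differences only. The interaction term and the fit of the 4 females were not tested in this way. GENCODE release M21 held 99.75% of the identifiers. Tables were made with Python 3.11.15, pandas 2.3.3 and numpy 2.4.6 and figures with matplotlib 3.10.9.

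Members, the 12 further gene lists and tests were chosen with earlier results of these data known. All members are named. From other lists the rule named up to 4 genes past a test by smallest p, otherwise up to 4 by mean CPM, and defining genes near 0; for likeness, the nearest 8 genes. Genes outside the rule are marked in the text, mark the lung (Sftpc, Scgb1a1) or hold a motif match. Alternatives were pseudocounts, filters, scalings, robust moderation, no sex term and leaving out libraries. A few genes that the rule would name are not reported here.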

Additional observations from a re-analysis of the deposited data

Results flagged for a closer look

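The interaction term of limma passed the threshold for Igha (interaction log2 -6.81), Ighg2c (-7.16), Igkc (-3.95) and Mzb1 (-2.73). Each rests on 1 male per label, and each was called out because the difference in the males was not that in the females. With 3 libraries per label, no library was tested as an outlier within its label.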

How the results depend on the processing

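No member was called by genotype label under any alternative run. The number of genes called was 2, and it was 6 with no filter on low values, with quantile normalization, with median centring and with robust moderation, 7 in the 4 females, and 1 to 4 when a library was left out. The label differences of Igha, Ighg1, Ighg2c, Igkc and Jchain reversed to 1.97, 0.0909, 1.28, 0.0994 and 0.876 (log2) in the 4 females and, at the same values, without wild type 3 or without knockout 3; their ranges when each library was left out were -1.21 to 1.97, -1.47 to 0.0909, -2.07 to 1.28, -1.89 to 0.0994 and -2.50 to 0.876; they kept their sign under every scaling, pseudocount and filter. By the form of the fit, runs without 1 male give the same label differences as the run in the 4 females, so they are no separate checks of these. Their errors and adjusted p are not the same. Of all alternative runs, the 4 females gave Igha its lowest limma adjusted p, 0.0576. The other members stayed below 0 throughout, and without a library ran from -1.66 to -0.458 (Ighm), -3.07 to -0.615 (Ighg2b), -2.40 to -1.12 (Ighg3), -1.58 to -1.10 (Derl3) and -1.49 to -0.212 (Mzb1). The call count for sex was 145 genes and no member; it ran from 21 to 840 genes and from 0 to 4 members when a library was left out. For the interaction term the counts were 441 genes and 4 members. Both fell to 0 with no filter on low values, and leaving out a female gave 230 to 577 genes and 3 to 6 members. The cause was not tested. The interaction term cannot be estimated without a male, and Derl3 does not reach the filter at a mean of 2 CPM. No paired analysis was possible because the labels give libraries no replicate number; the numbers used here only name libraries in the order of deposit. Depth limits Derl3, Ighg1 and Ighg3 most, with as few as 15, 10 and 13 reads in a library.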
